A study of Bos taurus
Mus musculus and Bos taurus and Mus musculus with 5 samples.

Results

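Molecular chaperones help proteins fold, keep damaged proteins from clumping and hand them on for repair or breakdown. Heat shock proteins of the HSP70 and HSP90 families do this with energy from ATP, aided by DNAJ co-chaperones that bring clients to HSP70 and by BAG proteins that release them, while small heat shock proteins hold unfolded clients without ATP. The ring-shaped chaperonins CCT, in the cytosol, and HSPD1 with its lid HSPE1, in mitochondria, enclose a protein while it folds, and the transcription factor HSF1 switches on many of these genes in heat or protein damage. The genes described here were taken by name from the bovine and the mouse table: every gene whose name, ignoring case, begins with HSPA, HSPB, HSPD, HSPE, HSPH, HSP90, DNAJ, CCT and a digit or BAG and a digit, and also TCP1 and HSF1. This gave 81 of 13923 bovine genes and 91 of 24543 mouse genes, together 172 of 38466, and all 81 bovine names also occurred in the mouse table. The prefix also takes HSPBP1, an exchange factor for HSP70, and HSPBAP1, a protein that binds HSPB1, neither of which is itself a small heat shock protein.

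The RNA came from heterokaryons, cells with 2 separate nuclei in 1 cytoplasm, in which a bovine fetal fibroblast (bFF) was joined to a mouse embryonic stem cell (mESC) and each read was assigned to a species. Heterokaryons were sampled 24, 48 and 72 h after fusion and compared with unfused bFF and unfused mESC, each group being 1 library of 200 cells. Fibroblasts came from 1 male fetus of about gestation day 60 and were kept at 38.5 °C in fibroblast medium, while mESC of a C57BL line were kept at 37 °C on irradiated mouse feeder fibroblasts, in stem cell medium with 1 µM PD0325901, an inhibitor of the kinase MEK, and 3 µM CHIR99021, an inhibitor of GSK3. For fusion the cells shared a well for 4 h, were treated with polyethylene glycol and DMSO for 2 min, and stayed at 37 °C in stem cell medium without either inhibitor. For the bovine genes, fusion therefore cannot be told apart from the step from 38.5 to 37 °C, the change of medium or the company of mouse cells, and for the mouse genes it cannot be told apart from the loss of the inhibitors or the company of bovine cells.

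No group had a replicate library. The edgeR quasi-likelihood test set the 3 heterokaryon libraries against the 1 control of the species, so its p-values rest on how much the 3 time points vary, and fewer transcripts per cell cannot be told apart from fewer cells that hold them. Bovine libraries held 982769 to 2634269 reads and mouse libraries 1731084 to 3446461. Levels are reads per 1000000 reads assigned to the species (RPM), given for the heterokaryons in the order 24, 48 and 72 h, and fold changes are log2 of heterokaryons over control, with their standard error (SE). Fibroblast markers made up 2.75% of bovine reads in bFF and 1.44% to 1.64% in heterokaryons, with all 7 detected throughout. Stem cell markers, again 7 of 7 detected, made up 1.83% of mouse reads in mESC and 1.54% to 1.58% in heterokaryons. Dppa5a alone gave 51683 of the 63058 stem cell marker reads in mESC, and single markers differed. Unscaled reads in the control and at 24, 48 and 72 h were 2591, 613, 599 and 684 for Nanog and 189, 214, 158 and 95 for Esrrb. They were 1140, 58, 90 and 104 for PDGFRA and 12476, 2608, 6324 and 6898 for VIM. Markers of feeder fibroblasts in the mouse table summed to 0.00218% in mESC and 0.00604% to 0.0171% in heterokaryons, with Col1a2, Col3a1 and Lum at 0, and their part in the results was not tested. By the reads that the control of the other species left in each table, 0.235% to 0.523% of the bovine chaperone reads and 0.104% to 0.204% of the mouse ones in a heterokaryon library may have been assigned to the wrong species. The other control was listed at 0 reads for 42 of the 65 bovine and 37 of the 64 mouse genes tested. As the value 1 never occurs in either table, such a 0 may stand for 1 read.

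Reads were found for 76 of the 81 bovine genes, and DNAJB3, DNAJB7, DNAJB13, HSPB3 and HSPB9 were listed at 0 throughout. Of the 76, 65 reached 10 CPM, the same measure after scaling between libraries, in at least 1 library and were tested. Among the 91 mouse genes 86 had reads and 64 were tested. Chaperone genes together took 1.58% of bovine reads in bFF (95% Clopper-Pearson interval 1.56% to 1.59%) and 1.78%, 1.60% and 1.91% at 24, 48 and 72 h. Their share of mouse reads was 3.05% in mESC (3.04% to 3.07%) and 2.70%, 2.71% and 2.86% in the heterokaryons. The share was higher among mouse than among bovine reads in every library. These intervals cover counting error only, since reads copied by PCR are not independent molecules.

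In bovine transcripts 4 of the 65 tested genes rose and none fell at an edgeR adjusted p under 0.05, beside 4.37% of all bovine genes tested that rose and 4.77% that fell, together 9.14%. The 4 were CCT5, DNAJB11, DNAJC3 and DNAJC25, and DESeq2 called the same 4 and none lower. At an unadjusted p under 0.05 there were 11 higher and 4 lower, together 15 of 65, where 24.1% of all bovine genes passed that limit. The median log2 fold change was 0.28 over the 65, with 42 above 0, and -0.03 over all 7376 genes tested, with 3581 above 0. Without the 24 h library 13 genes rose, adding BAG2, BAG3, BAG6, CCT6A, DNAJC15, HSP90AA1, HSP90B1, HSPB1 and TCP1, and DNAJA1, DNAJB4 and HSPB6 fell. Without the 48 h library DNAJC25 alone passed, and without the 72 h library the same 4 rose and DNAJB4 fell. For these fits without a library the share of all bovine genes called was not counted, so their counts have no background beside them. In 29 of the 65 genes all 3 heterokaryon libraries lay above bFF, beside 26.7% of all genes tested, and in 20 they all lay below, beside 41.1%.

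In mouse transcripts no gene of the 64 passed the test in either direction, beside 0.576% of all mouse genes tested that rose and 0.406% that fell, together 0.982%. At an unadjusted p under 0.05 there were 3 higher and 7 lower, where 16.4% of all mouse genes passed that limit, and DESeq2 called 1, Dnajc5. The median was -0.14, with 19 above 0 and 45 below, and -0.09 over all 8857 genes tested, with 3885 above 0 and 4972 below. Leaving out a library let Dnajc5 and Hspa8 (24 h) or Dnajc5, Hspb11 and Hspbap1 (72 h) pass, Hspa8 and Hspbap1 as lower. For those fits the share of all mouse genes called was not counted. The mouse libraries lay all above mESC for 16 of the 64 genes and all below for 22, beside 27.8% and 35.7% of all genes tested.

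**Figure D1:**
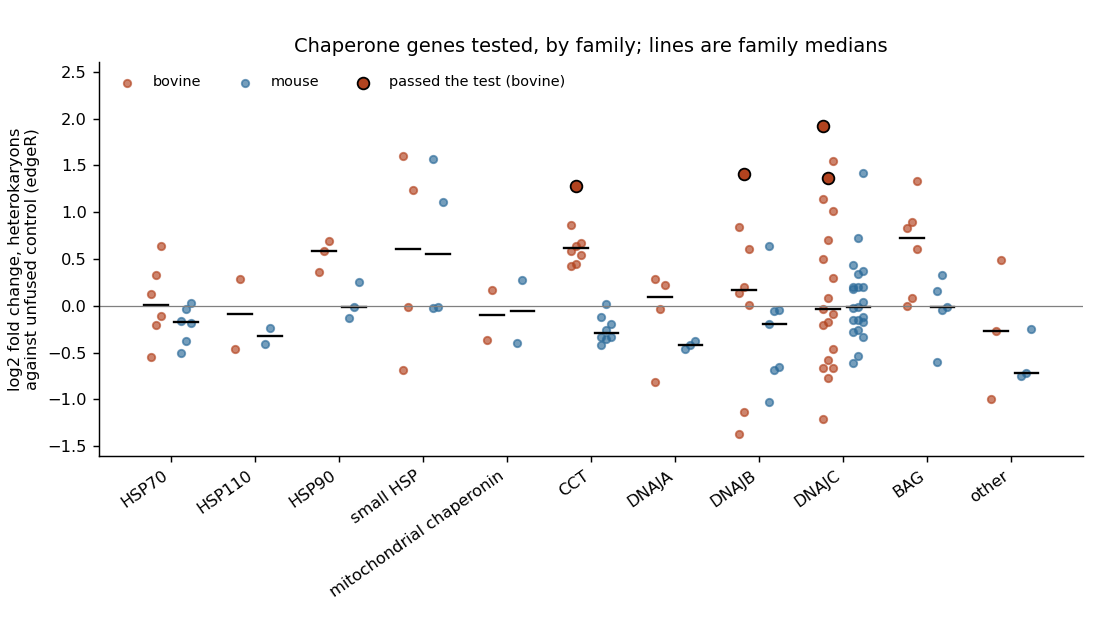
Log2 fold change of heterokaryons against the unfused control (vertical axis) for each of the 65 bovine and 64 mouse chaperone genes tested, grouped by family on the horizontal axis; short lines are family medians. The 4 ringed bovine points are CCT5, DNAJB11, DNAJC3 and DNAJC25, and the CCT family has its 8 bovine points above 0 and 7 of its 8 mouse points below.

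The cytosolic chaperonin CCT, also called TRiC, is a double ring of 8 different subunits that folds actin and tubulin among many others. CCT5, its epsilon subunit, stood at 222 RPM in bFF and 576, 445 and 486 RPM at 24, 48 and 72 h. All 3 heterokaryon libraries lay clear of bFF, whose 95% Poisson interval was 204 to 241 RPM, while the lowest heterokaryon interval, at 48 h, was 410.1 to 483 RPM. CCT5 rose (log2 fold change 1.28 ± 0.32, edgeR adjusted p = 0.0259). The bovine transcript lies on the minus strand of chromosome 20, listed from base 63097314, and its estimated share of wrongly assigned reads was at most 0.249%.

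The other 7 tested CCT subunits were also higher in every heterokaryon library than in bFF, though none of them passed the test; of all bovine genes tested, 26.7% were likewise above bFF in all 3 libraries. TCP1, the alpha subunit, stood at 369 RPM in bFF and 554, 594 and 715 RPM at 24, 48 and 72 h, the nearest to passing of these 7 (log2 fold change 0.86 ± 0.33, edgeR adjusted p = 0.132). CCT6A followed with 259 RPM in bFF and 341, 358 and 444 RPM at 24, 48 and 72 h and then CCT8 with 399 RPM in bFF and 689.9, 460.2 and 594 RPM in the heterokaryons (edgeR adjusted p = 0.236 and 0.25). These 3 subunits share an upward position but not its course, since CCT8 was highest at 24 h and TCP1 and CCT6A at 72 h. CCT2, CCT3, CCT4 and CCT7 had log2 fold changes of 0.45, 0.43, 0.55 and 0.59. Over the 8 subunits the median was 0.61, and all 8 stayed above 0 under every scaling tried and without any 1 heterokaryon library. CCT6B, which is known mainly from testis, had 3 to 8 reads and was not tested. Together the CCT genes took 0.237% of bovine reads in bFF and 0.359%, 0.324% and 0.381% at 24, 48 and 72 h.

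Mouse CCT subunits started from higher levels, and 7 of 8 lay on the other side of 0. In 5 of the 8 all 3 heterokaryon libraries lay below mESC and in 1 all lay above, beside 35.7% and 27.8% of all mouse genes tested. In RPM, Cct8 and Tcp1 lay above mESC at 72 h. Cct5 was found at 1107 RPM in mESC and 801, 899 and 1020.0 RPM after fusion, so all 3 heterokaryon libraries lay below mESC, the nearest at 72 h. Cct3 had the lowest log2 fold change of the family, -0.42 ± 0.18 (edgeR adjusted p = 0.263), with 844 RPM in mESC and 589, 652 and 712 RPM at 24, 48 and 72 h. Cct7 gave 1126 RPM in mESC and 823, 878 and 1019 RPM in the heterokaryons and Cct4 1001 RPM in mESC and 730.1, 810.5 and 919 RPM after fusion. In these 4 genes the 24 h library was the lowest and the 72 h library the nearest to mESC. Cct2 alone had a log2 fold change above 0, at 452 RPM in mESC and 462, 499 and 457 RPM at 24, 48 and 72 h. In all, 7 of 8 mouse subunits were below 0 under every scaling tried, with a median of -0.30, and without the 48 h library all 8 were. No mouse subunit passed the test, and DESeq2 called none. Of the 8, 1 had an unadjusted p under 0.05, beside 16.4% of all mouse genes tested. The mouse CCT share of reads was 0.775% in mESC and 0.605%, 0.655% and 0.737% in the heterokaryons.

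**Figure D2:**
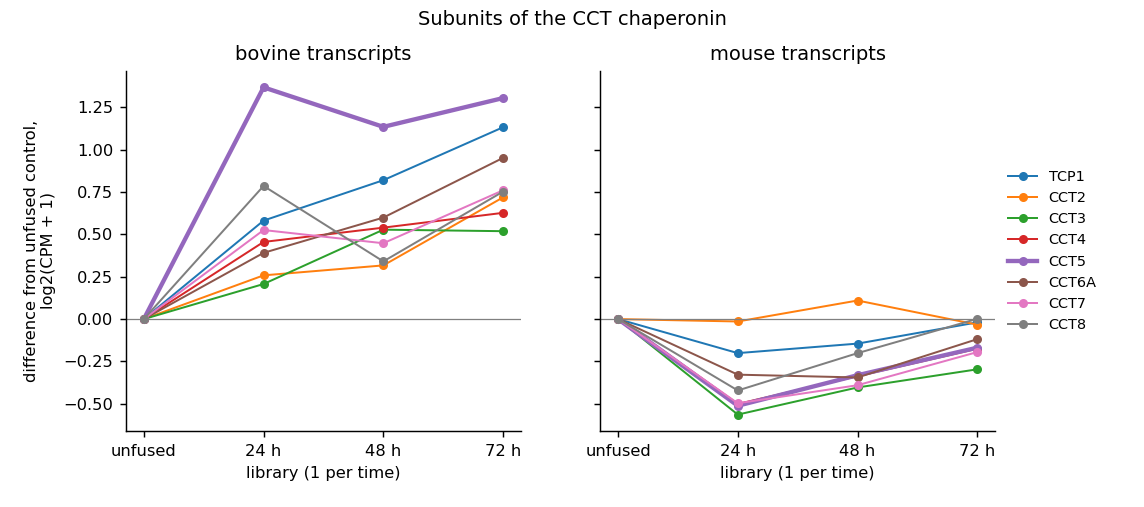
Difference from the unfused control in log2(CPM + 1) (vertical axis) for the 8 tested CCT subunits in the unfused control and at 24, 48 and 72 h (horizontal axis), bovine on the left and mouse on the right, 1 line per subunit. Every bovine line stays above 0, with CCT5, drawn thick, highest throughout, while the mouse lines other than Cct2 lie between -0.57 and 0.00, most of them lowest at 24 h.

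The edgeR fit also asked whether a gene of the same name changed differently in the 2 species, as the interaction of species and fusion, over the 5635 genes tested in both, of which 57 are chaperone genes. Only CCT5 passed, with a bovine change above the mouse change by 1.51 ± 0.33 on the log2 scale (edgeR adjusted p = 0.02), where 3.02% of all genes passed in that direction and 1.63% in the other, together 4.65%. The difference was above 0 for 8 of 8 CCT subunits, with a median of 0.81 and 6 of 8 at an unadjusted p under 0.05. At that limit stood 16 of the 57 genes and 20.8% of all genes. Over the 57 genes 37 differences were above 0, with a median of 0.33. Over all 5635 genes 2855 were above 0, with a median of 0.01. For the fits without a library, given next, the share of all genes passing was not counted. Without the 24 h library 7 genes passed as higher (CCT5, CCT6A, TCP1, DNAJB6, DNAJB11, DNAJC25 and HSPB1) and DNAJC19 as lower. For CCT5 the edgeR adjusted p became 0.11 without the 48 h library and 0.0544 without the 72 h library.

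The main clients of CCT were on a separate list with their folding regulators. TUBB, a beta-tubulin, gave 464 RPM in bFF and 870.0, 1371 and 1429 RPM in the heterokaryons, and TUBB4B, another, gave 133 RPM in bFF and 282, 376 and 420.3 RPM after fusion. TUBA1B, an alpha-tubulin, gave 1376 RPM in bFF and 2444, 3522 and 4102 RPM at 24, 48 and 72 h. All 3 were lowest in bFF and highest at 72 h. TUBB rose by 1.52 ± 0.40, TUBB4B by 1.56 ± 0.37 and TUBA1B by 1.41 ± 0.40 on the log2 scale (edgeR adjusted p = 0.0342, 0.0202 and 0.0456), which makes 3 of the 9 tested, beside 4.37% of all bovine genes tested that rose. TUBA1B did not pass with library totals as the scaling (0.0524), and neither TUBA1B nor TUBB passed with a filter of 50 CPM (0.067 and 0.0507) or without the 48 h library (0.138 and 0.0994), all by edgeR adjusted p. The actins did not pass by edgeR, and DESeq2 called ACTG1 higher as well as these 3 tubulins. ACTB stood at 6037 RPM in bFF and 6249, 14695 and 22196 RPM in the heterokaryons and ACTG1 at 2378 RPM in bFF and 3585, 6397 and 8395 RPM after fusion (edgeR adjusted p = 0.169 and 0.0728). Near-identical tubulin and actin copies may share reads. In mouse none of the 8 listed genes that were tested passed, and DESeq2 called none. At an unadjusted p under 0.05, 3 were lower, where 16.4% of all mouse genes tested passed that limit in either direction. Tuba1b stood at 2253 RPM in mESC and 1426, 1481 and 1845 RPM at 24, 48 and 72 h, and Tubb4b at 761 RPM in mESC and 635, 451 and 504 RPM in the heterokaryons. Actg1 gave 2099 RPM in mESC and 793, 1039 and 1477 RPM after fusion and was highest in mESC. The bovine change exceeded the mouse change by 1.87 ± 0.45 for TUBA1B, 2.03 ± 0.43 for TUBB4B and 2.38 ± 0.62 for ACTG1 on the log2 scale (edgeR adjusted p = 0.0289, 0.0178 and 0.0436). None of these 3 differences passed without the 48 h library (0.146, 0.0972 and 0.153) or without the 72 h library (0.0662, 0.0696 and 0.0567), and that of ACTG1 did not pass with a filter of 50 CPM (0.0644) or after subtracting wrongly assigned reads (0.0548), all by edgeR adjusted p. Of the 6 subunits of prefoldin, the complex that hands actin and tubulin to CCT, none passed in either species by edgeR or DESeq2, and the only unadjusted p under 0.05 was that of bovine VBP1, at 90.7 RPM in bFF and 159.8, 173 and 169 RPM at 24, 48 and 72 h (log2 fold change 0.99). Of all genes tested, 24.1% in bovine and 16.4% in mouse passed that limit.

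The other 3 bovine genes that rose encode DNAJ proteins, and 2 of them work in the endoplasmic reticulum (ER). DNAJB11, an ER co-chaperone of the HSP70 protein HSPA5, gave 57.7 RPM in bFF and 156, 156 and 116 RPM in the heterokaryons. DNAJC3, an ER protein also called P58IPK that binds HSPA5 as well, gave 127 RPM in bFF and 309, 354 and 253 RPM after fusion. DNAJC25, a membrane protein of less well known function, gave 19.4 RPM in bFF and 86.5, 69.1 and 51.9 RPM at 24, 48 and 72 h. In each, bFF lay below all 3 heterokaryon libraries, and each had its lowest heterokaryon value at 72 h. DNAJB11 rose by 1.40 ± 0.34, DNAJC3 by 1.37 ± 0.33 and DNAJC25 by 1.92 ± 0.42 on the log2 scale (edgeR adjusted p = 0.0225, 0.0215 and 0.0139). Without the 48 h library only DNAJC25 still passed (0.023), while CCT5, DNAJB11 and DNAJC3 had an edgeR adjusted p of 0.0864, 0.0952 and 0.103. The DNAJC25 values rest on 51, 85, 92 and 80 reads. These transcripts are listed from base 81234018 of chromosome 1 on the minus strand for DNAJB11, base 76958978 of chromosome 12 on the plus strand for DNAJC3 and base 102759008 of chromosome 8 on the plus strand for DNAJC25.

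Their mouse counterparts had log2 fold changes of -0.04, 0.43 and 0.04. Dnajb11 stood at 129 RPM in mESC and 139.7, 134 and 114 RPM in the heterokaryons, Dnajc3 at 35.7 RPM in mESC and 49.4, 46.2 and 53.4 RPM after fusion and Dnajc25 at 14.8 RPM in mESC and 24.7, 12.1 and 9.26 RPM at 24, 48 and 72 h. For Dnajb11 and Dnajc25 the mouse control lay within the heterokaryon range. The difference between the species was 1.35 ± 0.39 for DNAJB11, 0.84 ± 0.38 for DNAJC3 and 1.78 ± 0.69 for DNAJC25 on the log2 scale, and none passed (edgeR adjusted p = 0.0639, 0.23 and 0.163). DNAJB11 passed this test by DESeq2 (adjusted p = 0.0491) and, with edgeR, under a filter of 50 CPM (adjusted p = 0.0499).

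**Figure D3:**
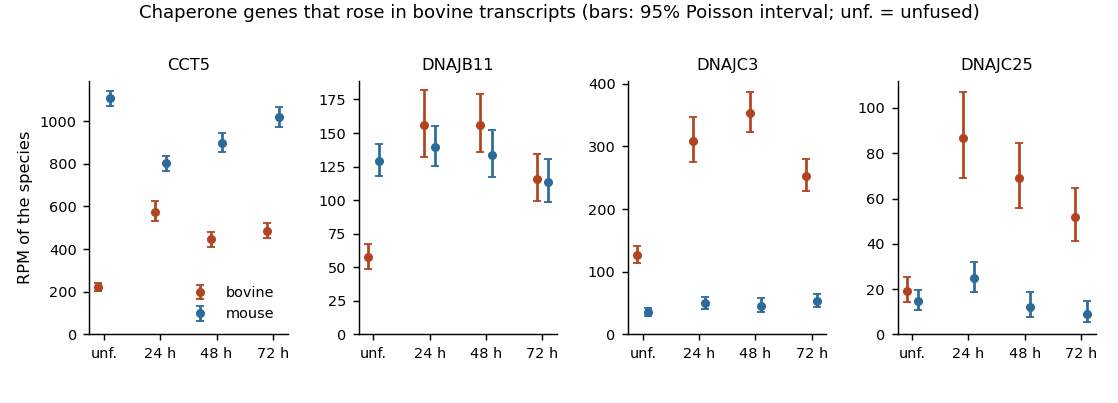
RPM of the species (vertical axes, each from 0) in the unfused control (unf.) and at 24, 48 and 72 h for the 4 genes that rose in bovine transcripts, bovine and mouse side by side; bars are 95% Poisson intervals of the read count. Each bovine control lies below its 3 heterokaryon values, from 222 against at least 445 RPM for CCT5 to 19.4 against at least 51.9 RPM for DNAJC25.

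Chaperones and folding enzymes of the ER were examined together with these co-chaperones. HSPA5, the ER member of HSP70 also called BiP, stood at 1701 RPM in bFF and 2215, 1021 and 1970.4 RPM in the heterokaryons, so the 48 h library lay below bFF and the others above (log2 fold change 0.13 ± 0.39, edgeR adjusted p = 0.887); the sign turned when the 24 h or the 72 h library was left out. HSP90B1, the ER member of HSP90 also called GRP94, gave 1061 RPM in bFF and 1732, 1546 and 1519 RPM after fusion and lay above bFF throughout (log2 fold change 0.69 ± 0.31, edgeR adjusted p = 0.193). Of 17 tested genes on a list of ER folding and unfolded protein response, 2 rose and 1 fell, beside 4.37% and 4.77% of all bovine genes tested. MANF, a secreted ER stress protein, rose, with 383 RPM in bFF and 1195, 1173 and 1109 RPM at 24, 48 and 72 h (log2 fold change 1.70 ± 0.33, edgeR adjusted p = 0.00793). P4HB, a protein disulfide isomerase, also rose, with 525 RPM in bFF and 1393, 994 and 1378 RPM in the heterokaryons (log2 fold change 1.36 ± 0.35, edgeR adjusted p = 0.0283). DDIT3, a transcription factor induced late in ER stress and also called CHOP, fell, with 386 RPM in bFF and 179, 150.2 and 141 RPM after fusion (log2 fold change -1.20 ± 0.27, edgeR adjusted p = 0.0159). The bFF library was thus the lowest of the 4 for MANF and P4HB and the highest for DDIT3. P4HB and DDIT3 did not pass without the 48 h library (edgeR adjusted p = 0.0702 and 0.0789). SDF2L1, a partner of DNAJB11 in the ER, did not pass at 39.9 RPM in bFF and 144, 116 and 56.4 RPM at 24, 48 and 72 h (edgeR adjusted p = 0.0628), though DESeq2 called it higher.

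In mouse transcripts none of the 16 tested ER genes passed, and DESeq2 called none. None had an unadjusted p under 0.05, beside 16.4% of all mouse genes tested. Hspa5 stood at 468 RPM in mESC and 509.7, 407 and 554 RPM in the heterokaryons and Hsp90b1 at 769 RPM in mESC and 1063, 893 and 875 RPM after fusion. Hsp90b1 was lowest in mESC, whereas Hspa5 had its control between the heterokaryon values. Manf gave 150.0 RPM in mESC and 212, 202 and 183 RPM at 24, 48 and 72 h, and its change was smaller than that of bovine MANF by 1.24 ± 0.32 on the log2 scale (edgeR adjusted p = 0.0419, and 0.0606 with no filter on low counts, 0.213 without the 48 h library, 0.122 without the 72 h library and 0.0657 with a block for each heterokaryon library). Ddit3 gave 20.9 RPM in mESC and 18.1, 38.1 and 41.4 RPM in the heterokaryons, and its difference from bovine DDIT3 did not pass by edgeR (-1.88 ± 0.52 on the log2 scale, adjusted p = 0.0594) but did by DESeq2 (adjusted p = 0.0298). With the 24 h library left out it passed by edgeR as well (adjusted p = 2.09e-06). Mouse P4hb gave 511 RPM in mESC and 812, 505 and 482 RPM at 24, 48 and 72 h. The P4HB difference, 1.08 ± 0.44 on the log2 scale, did not pass with all libraries (edgeR adjusted p = 0.178). It passed with the 24 h library left out (edgeR adjusted p = 0.000444).

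No cytosolic HSP70 gene passed the test in either species. HSPA8, the constitutive form also called HSC70, stood at 2081 RPM in bFF and 1142, 1083 and 1722 RPM after fusion (log2 fold change -0.54 ± 0.35, edgeR adjusted p = 0.374). Its mouse counterpart Hspa8 stood at 4630.0 RPM in mESC and 3808, 2868 and 3432 RPM at 24, 48 and 72 h (log2 fold change -0.50 ± 0.16, edgeR adjusted p = 0.138). In both species the control was highest, 48 h lowest and 72 h above 48 h. Mouse Hspa8 passed when the 24 h library was left out (edgeR adjusted p = 0.0217). Per length, Hspa8 was the most abundant mouse chaperone transcript in mESC at 1934 RPM per kilobase of transcript, ahead of Hsp90aa1 at 1535, Hsp90ab1 at 1367 and Hspb1 at 1226.

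HSPA1A, the classical heat-inducible HSP70, had 86 bovine reads in bFF and 97, 21 and 53 at 24, 48 and 72 h, or 32.6 RPM in bFF and 98.7, 15.8 and 34.4 RPM in the heterokaryons. The bovine table lists it as 2 transcripts at 1 locus with different counts, which were summed; how any shared reads were divided between them is not known. The 24 h library stood apart, with a 95% Poisson interval of 80.04 to 120.4 RPM, while the 72 h library lay close to bFF and the 48 h library below it. HSPA1A did not pass (log2 fold change 0.64 ± 0.67, edgeR adjusted p = 0.612), and without the 24 h library its log2 fold change was -0.22. Mouse Hspa1a had 0 reads in mESC and 14, 3 and 3 in the heterokaryons, at least 6.63-fold higher at 24 h than a floor of 3 reads in mESC. Mouse Hspa1b, the neighbouring copy, had 5, 7, 3 and 0 reads. Of the windows of 50 bases in Hspa1a, 58.81% also occur in Hspa1b, so the split of reads between the 2 copies is uncertain. In both species the 24 h library was the highest of the 4.

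None of the other HSP70 and HSP110 genes passed either. HSPA9, the mitochondrial HSP70 also called mortalin, gave 530.3 RPM in bFF and 401, 412 and 463 RPM after fusion, and mouse Hspa9 499.6 RPM in mESC and 331, 468 and 565 RPM at 24, 48 and 72 h. HSPA13 gave 73.6 RPM in bFF and 47.8, 50.3 and 88.9 RPM in the heterokaryons and mouse Hspa13 22.9 RPM in mESC and 30.5, 11.6 and 11.4 RPM after fusion. HSPA14, a ribosome-associated HSP70, gave 99.1 RPM in bFF and 112, 107 and 127 RPM at 24, 48 and 72 h and mouse Hspa14 366 RPM in mESC and 336, 366 and 407 RPM in the heterokaryons. The lowest edgeR adjusted p of these 6 was 0.582, that of HSPA14. HSPA9 was highest in bFF, while HSPA13 had bFF between its 48 and 72 h values. HSP110 proteins release nucleotide from HSP70, and of them HSPH1 stood at 58.8 RPM in bFF and 48.8, 33.03 and 38.3 RPM after fusion and HSPA4 at 129.8 RPM in bFF and 186, 135 and 124 RPM at 24, 48 and 72 h. Mouse Hsph1 gave 62.1 RPM in mESC and 70.9, 45.6 and 45.2 RPM in the heterokaryons and Hspa4 353 RPM in mESC and 293, 251 and 277 RPM after fusion. HSPH1 lay below bFF in all 3 heterokaryon libraries, and Hspa4 below mESC in all 3. Another HSP110 gene, Hspa4l, had 0 reads in mESC and 13, 7 and 14 in the heterokaryons, at least 6.15-fold, 4.65-fold and 8.76-fold higher than a floor of 3 mESC reads. Hspa4l was too low to be tested and passed only with no filter on low counts, and as single reads are never listed, its 0 may stand for 1 read.

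HSP90 proteins mature kinases and steroid receptors. HSP90AA1, the inducible cytosolic form, gave 1405 RPM in bFF and 1920.1, 1874 and 2093 RPM at 24, 48 and 72 h, and HSP90AB1, the constitutive form, 894 RPM in bFF and 1209, 1003 and 994 RPM in the heterokaryons. With HSP90B1, all 3 bovine HSP90 genes lay above bFF in every heterokaryon library, beside 26.7% of all bovine genes tested. All 3 kept a log2 fold change above 0 under every scaling tried, but none passed (edgeR adjusted p = 0.285, 0.514 and 0.193). By DESeq2 none passed either, and 1, HSP90B1, had an unadjusted edgeR p under 0.05, beside 24.1% of all bovine genes tested. Their summed share of bovine reads was 0.336% in bFF and 0.486%, 0.442% and 0.461% in the heterokaryons. Mouse Hsp90aa1 gave 5036 RPM in mESC and 4259, 5064 and 4865 RPM after fusion, and Hsp90ab1 3444 RPM in mESC and 3291, 3591 and 3705 RPM at 24, 48 and 72 h. The mouse sum was 0.925% in mESC and 0.861%, 0.955% and 0.944% in the heterokaryons, with the control inside their range. The log2 fold change of Hsp90ab1, -0.01, turned above 0 under each other scaling, as it did by DESeq2. Of 12 HSP90 co-chaperones on a list, such as STIP1, which links HSP70 to HSP90, none passed in either species by edgeR or DESeq2, and 0 bovine and 3 mouse genes had an unadjusted p under 0.05. Of all genes tested, 24.1% in bovine and 16.4% in mouse passed that limit.

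**Figure D4:**
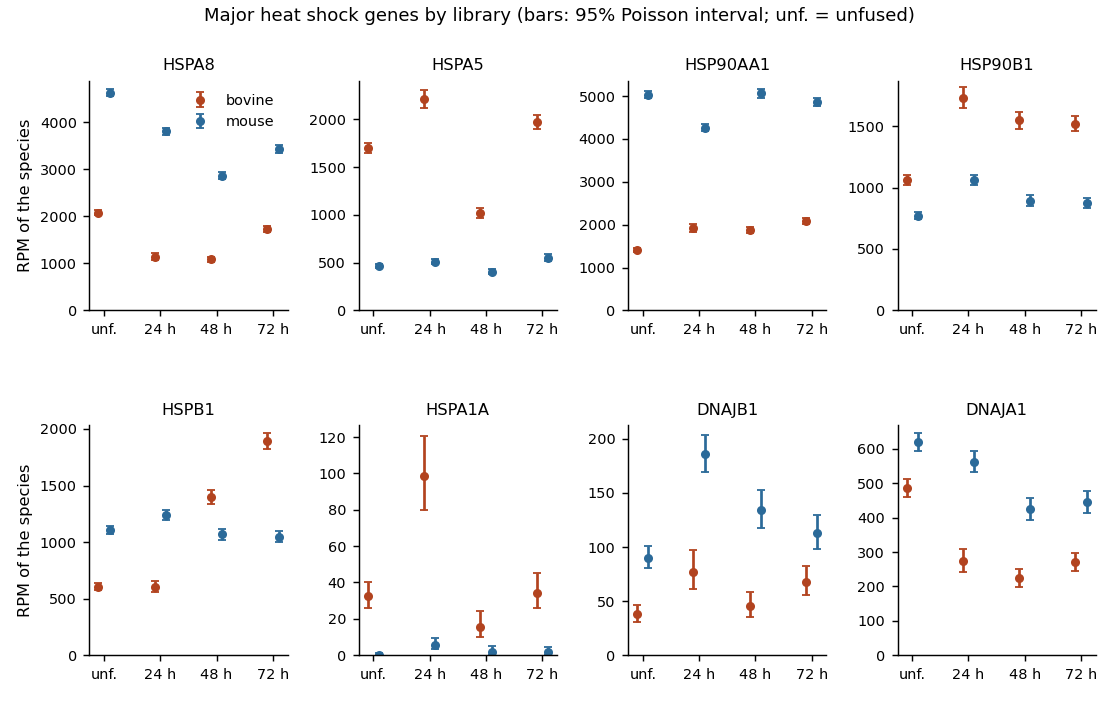
RPM of the species (vertical axes, each from 0) in the unfused control (unf.) and at 24, 48 and 72 h for 8 major heat shock genes, bovine and mouse side by side; bars are 95% Poisson intervals of the read count. Bovine HSPB1 goes from 605 to 1892 RPM by 72 h, HSPA1A peaks at 98.7 RPM at 24 h, and HSPA8 and DNAJA1 are highest in the controls of both species.

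Small heat shock proteins differed from gene to gene. HSPB1, also called HSP27, gave 605 RPM in bFF and 606, 1397 and 1892 RPM in the heterokaryons. The 24 h library equalled bFF within counting error, and the 48 and 72 h libraries lay well above. With this spread HSPB1 did not pass (log2 fold change 1.24 ± 0.54, edgeR adjusted p = 0.184), and without the 24 h library its log2 fold change was 1.59 with an edgeR adjusted p of 1.35e-08, from 2 heterokaryon libraries whose difference in time is the only spread. Mouse Hspb1 gave 1107 RPM in mESC and 1239.8, 1068 and 1048 RPM after fusion, close to the control throughout, with a log2 fold change of -0.03 whose sign turned with the scaling. The species difference for HSPB1 was 1.18 ± 0.65 on the log2 scale (edgeR adjusted p = 0.323).

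HSPB6, a small heat shock protein best known from muscle, gave 672 RPM in bFF and 396, 368 and 398 RPM at 24, 48 and 72 h and lay below bFF throughout (log2 fold change -0.69 ± 0.28, edgeR adjusted p = 0.155). HSPB8, a partner of BAG3 in autophagy, gave 6.07 RPM in bFF and 20.4, 12.01 and 19.5 RPM in the heterokaryons from 16 to 30 reads (log2 fold change 1.60 ± 0.67, edgeR adjusted p = 0.164), and mouse Hspb8 57.2 RPM in mESC and 69.2, 51.99 and 53.4 RPM after fusion. Mouse Hspb11, a part of the intraflagellar transport machinery of cilia despite its name, gave 20.02 RPM in mESC and 52.7, 49.1 and 31.6 RPM at 24, 48 and 72 h and lay above mESC in all 3 libraries (log2 fold change 1.11 ± 0.39, edgeR adjusted p = 0.171), whereas bovine HSPB11 gave 35.7 RPM in bFF and 35.6, 34.5 and 28.5 RPM in the heterokaryons. Mouse Hspb2 had 4.06 RPM in mESC and 22.2, 5.20 and 9.26 RPM after fusion, with 54 reads at 24 h. CRYAB, the related alpha-crystallin on the list of other heat-induced genes, rose, at 5.69 RPM in bFF and 47.8, 33.03 and 68.8 RPM at 24, 48 and 72 h (log2 fold change 3.23 ± 0.58, edgeR adjusted p = 0.00535). Its bFF value rests on 15 reads, and its heterokaryon values on 47, 44 and 106. Mouse Cryab gave 13.1 RPM in mESC and 136, 26.00 and 20.7 RPM in the heterokaryons and did not pass (edgeR adjusted p = 0.202), with only its 24 h value far above mESC. The species difference for CRYAB did not pass (edgeR adjusted p = 0.728; 0.00683 without the 24 h library). CRYAB was the 1 gene of the 11 tested on that bovine list that passed, beside 4.37% of all bovine genes tested that rose. Of the 11, 7 had a log2 fold change above 0 and 4 below. UBB, with 20960 of the list's 25944 bFF reads, gave 7957 RPM in bFF and 5439, 4487 and 3866 RPM in the heterokaryons. It did not pass (log2 fold change -0.70 ± 0.30, edgeR adjusted p = 0.173). The list's share of bovine reads was 0.985% in bFF and 0.723%, 0.624% and 0.557% at 24, 48 and 72 h. TRAP1, the mitochondrial relative of HSP90 on the same list, gave 26.6 RPM in bFF and 52.9, 45.05 and 58.4 RPM after fusion, while mouse Trap1 gave 206 RPM in mESC and 96.00, 101 and 135 RPM at 24, 48 and 72 h. Bovine TRAP1 was lowest in bFF and mouse Trap1 highest in mESC, and neither passed (edgeR adjusted p = 0.114 and 0.073). The difference between the species passed at 1.93 ± 0.44 on the log2 scale (edgeR adjusted p = 0.0235; 0.0952 without the 48 h library).

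In the mitochondrial chaperonin the 2 partners lay on opposite sides of 0. HSPD1, the ring subunit also called HSP60, gave 862 RPM in bFF and 635, 577 and 656 RPM in the heterokaryons, and HSPE1, its lid also called HSP10, 451 RPM in bFF and 530.1, 452 and 431 RPM after fusion. Mouse Hspd1 gave 941 RPM in mESC and 671, 668 and 869 RPM at 24, 48 and 72 h and Hspe1 607 RPM in mESC and 809.6, 820.3 and 644 RPM in the heterokaryons. HSPD1, summed over 3 bovine transcripts at 1 locus, lay below the control in every heterokaryon library of both species. The log2 fold changes were -0.36 and 0.16 in bovine and -0.40 and 0.28 in mouse, and none passed (edgeR adjusted p from 0.309 to 0.785). The mouse Hspd1 and Hspe1 genes start 111 bases apart. Counting by strand is not stated, so reads of any overlap cannot be told apart.

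Among the remaining DNAJ proteins, which carry the J domain that starts ATP use by HSP70, both directions occurred. In the mouse DNAJA family all 3 tested genes had a log2 fold change below 0, with a median of -0.42. Each of these 3 lay below mESC in every heterokaryon library, beside 35.7% of all mouse genes tested. Of the 4 bovine DNAJA genes tested, 2 lay above 0 and 2 below. No DNAJA gene passed in either species. DNAJA1, a cytosolic partner of HSPA8, gave 485 RPM in bFF and 273, 224 and 269.8 RPM after fusion (log2 fold change -0.82 ± 0.28, edgeR adjusted p = 0.0909), and mouse Dnaja1 619 RPM in mESC and 562, 424 and 445 RPM at 24, 48 and 72 h. It lay below the control in every heterokaryon library of both species. DNAJB4 gave 109 RPM in bFF and 32.6, 51.1 and 52.5 RPM in the heterokaryons and was likewise highest in bFF (log2 fold change -1.13 ± 0.37, edgeR adjusted p = 0.0779; 0.00864 without the 24 h and 0.0262 without the 72 h library). DNAJB5 had 20.9 RPM in bFF and 8.14, 3.00 and 11.03 RPM after fusion, from 4 to 55 reads. DNAJB1, the heat-inducible partner of HSPA1A, gave 37.96 RPM in bFF and 77.3, 45.8 and 68.1 RPM at 24, 48 and 72 h, and mouse Dnajb1 90.2 RPM in mESC and 186, 134 and 113 RPM in the heterokaryons. DNAJB1 was lowest in the control and highest at 24 h in both species, without passing (edgeR adjusted p = 0.217 in bovine and 0.283 in mouse).

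DNAJB6, which keeps proteins with polyglutamine runs from aggregating, lay on opposite sides in the 2 species. Bovine DNAJB6 gave 119 RPM in bFF and 204, 148 and 158 RPM after fusion, and mouse Dnajb6 463 RPM in mESC and 291, 300.4 and 319.7 RPM at 24, 48 and 72 h (edgeR adjusted p = 0.255 and 0.111). The species difference was 1.17 ± 0.33 on the log2 scale (edgeR adjusted p = 0.065; DESeq2 adjusted p = 0.0469), and an estimated 9.61% to 15.5% of its bovine reads in the 3 heterokaryon libraries may be mouse reads. Mouse Dnajb12, an ER membrane co-chaperone, stood at 26.4 RPM in mESC and 12.8, 10.4 and 16.9 RPM in the heterokaryons (log2 fold change -1.02 ± 0.41, edgeR adjusted p = 0.233), and bovine DNAJB12 at 30.7 RPM in bFF and 27.5, 25.5 and 32.4 RPM after fusion.

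Dnajc5, the cysteine string protein of secretory vesicles, was the mouse chaperone gene nearest to passing. It stood at 17.7 RPM in mESC and 51.1, 48.5 and 46.8 RPM at 24, 48 and 72 h, with the 3 heterokaryon libraries close together and far above mESC (log2 fold change 1.42 ± 0.35, edgeR adjusted p = 0.0671). It passed under scaling by relative log expression (0.0499), with TMM over the tested genes alone (0.0421), by DESeq2 (0.0309) and without the 24 or 72 h library (0.00401 and 0.0254), all adjusted p. Bovine DNAJC5 gave 21.3 RPM in bFF and 52.9, 32.3 and 36.3 RPM in the heterokaryons and lay above bFF throughout as well (log2 fold change 1.01 ± 0.43, edgeR adjusted p = 0.172). These bovine values sum a coding and a non-coding transcript listed from the same base. The coding one had 40 reads in bFF and 27, 22 and 26 at 24, 48 and 72 h. The non-coding one had 16 reads in bFF and then 25, 21 and 30. How any shared reads were divided between them is not known. DNAJC22 gave 5.31 RPM in bFF and 21.4, 16.5 and 7.13 RPM after fusion from 11 to 22 reads. Mouse Dnajc1 gave 10.4 RPM in mESC and 12.8, 22.5 and 18.5 RPM at 24, 48 and 72 h and Dnajc11, of the mitochondrial membranes, 89.7 RPM in mESC and 54.4, 60.7 and 66.98 RPM in the heterokaryons, the latter below mESC throughout (edgeR adjusted p = 0.277). DNAJC19, part of the mitochondrial import machinery, gave 121 RPM in bFF and 56.98, 77.3 and 62.3 RPM after fusion, below bFF throughout, while mouse Dnajc19 gave 170.0 RPM in mESC and 207, 217 and 182 RPM at 24, 48 and 72 h, above mESC throughout, and the species difference did not pass (edgeR adjusted p = 0.141).

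The BAG proteins, nucleotide exchange factors of HSP70, had no bovine log2 fold change below 0, with 4 of 6 above bFF in every library beside 26.7% of all bovine genes tested, but with library totals as the scaling 2 of the 6 turned below 0. BAG2 gave 25.1 RPM in bFF and 65.1, 49.5 and 61.6 RPM in the heterokaryons (log2 fold change 1.33 ± 0.39, edgeR adjusted p = 0.0531), and passed with TMM over the tested genes alone (0.0478). BAG3, the HSF1 target that sends clients to autophagy, gave 33.8 RPM in bFF and 54.9, 40.5 and 71.3 RPM after fusion, and BAG6, which guards membrane proteins before insertion, 28.1 RPM in bFF and 45.8, 44.3 and 54.5 RPM at 24, 48 and 72 h (edgeR adjusted p = 0.255 and 0.193). None of the 6 passed by edgeR or DESeq2, and 2 had an unadjusted p under 0.05, beside 24.1% of all bovine genes tested. In mouse Bag2 gave 10.2 RPM in mESC and 8.24, 12.1 and 10.3 RPM in the heterokaryons, Bag6 33.7 RPM in mESC and 46.1, 46.8 and 22.3 RPM after fusion and Bag5 49.3 RPM in mESC and 42.03, 31.2 and 26.7 RPM at 24, 48 and 72 h. Bag3 had 18, 9, 7 and 8 reads and was too low to be tested.

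HSF1, the master regulator of the heat shock response, gave 95.7 RPM in bFF and 40.7, 88.6 and 86.9 RPM in the heterokaryons. Its 24 h value was the lowest, and the others lay close together (log2 fold change -0.27 ± 0.43, edgeR adjusted p = 0.753, and 0.02 on the log2 scale without the 24 h library). Mouse Hsf1 gave 44.1 RPM in mESC and 41.6, 27.7 and 45.2 RPM after fusion, with 48 h lowest. HSPBP1 gave 24.7 RPM in bFF and 39.7, 29.3 and 28.5 RPM at 24, 48 and 72 h and HSPBAP1 13.7 RPM in bFF and 13.2, 5.26 and 1.95 RPM in the heterokaryons, from 3 to 36 reads. Mouse Hspbp1 stood at 117 RPM in mESC and 67.98, 75.1 and 71.9 RPM after fusion and Hspbap1 at 179 RPM in mESC and 104, 98.2 and 135 RPM at 24, 48 and 72 h, both below mESC in every heterokaryon library (edgeR adjusted p = 0.155 and 0.159).

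Because bovine cells went from 38.5 to 37 °C, the cold-inducible RNA-binding proteins RBM3 and CIRBP, which are made in mild cooling, were read beside the heat shock genes. RBM3 gave 94.1 RPM in bFF and 441, 534 and 520.2 RPM in the heterokaryons, from 248, 433, 711 and 802 reads. Every heterokaryon value was far above bFF, and RBM3 rose (log2 fold change 2.52 ± 0.36, edgeR adjusted p = 0.00157), under every alternative tried. CIRBP gave 45.6 RPM in bFF and 120.1, 84.1 and 77.8 RPM after fusion, again lowest in bFF, and did not pass (log2 fold change 1.13 ± 0.36, edgeR adjusted p = 0.0705; 0.0109 without the 24 h library). Mouse Rbm3 gave 288 RPM in mESC and 336, 237 and 217 RPM at 24, 48 and 72 h and Cirbp 68.8 RPM in mESC and 59.7, 80.3 and 60.99 RPM in the heterokaryons, with mESC inside the heterokaryon range in both. The species difference was 2.59 ± 0.42 for RBM3 and 1.12 ± 0.43 for CIRBP on the log2 scale (edgeR adjusted p = 0.00462 and 0.161). mESC had been kept at 37 °C before and after fusion. Temperature, medium, company and fusion cannot be told apart in these bovine values.

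**Figure D5:**
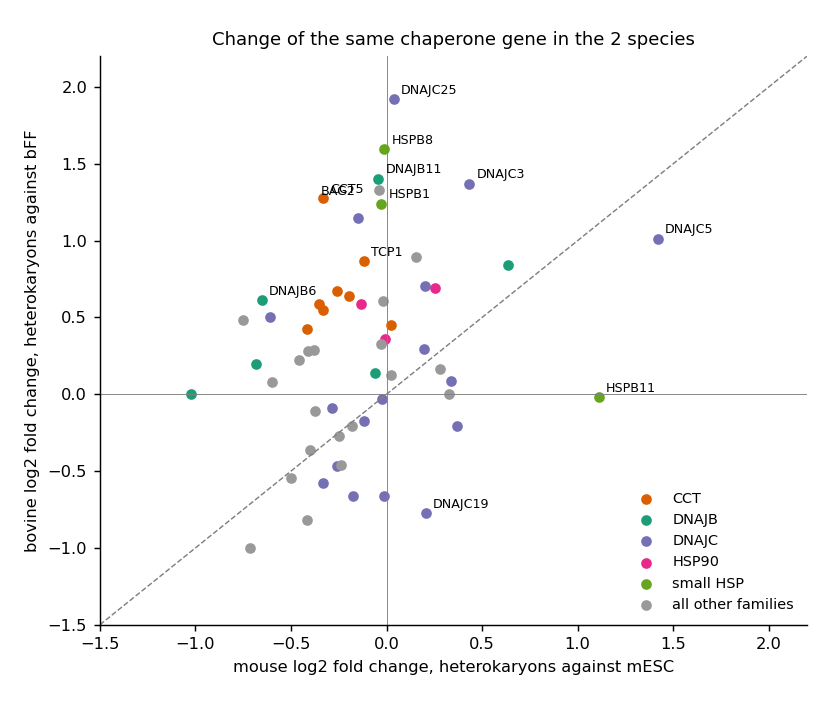
Log2 fold change of heterokaryons against the unfused control in bovine (vertical axis) and mouse (horizontal axis) transcripts for the 57 chaperone genes tested in both, 1 point per gene, coloured by family; the dashed line marks equal change. CCT5 lies at 1.28 and -0.33, and the CCT points all lie above the dashed line, while DNAJC5 is raised on both axes.

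Taken by time, with 1 library on each side and no test, 11 of 65 bovine chaperone genes were at least 2-fold higher and 6 at least 2-fold lower at 24 h than in bFF on the log2(CPM + 1) scale, beside 13.4% and 14.8%, together 28.2%, of all genes eligible. At 48 h 8 of 64 were higher and 3 lower, beside 11.4% and 15.1%, together 26.5%. At 72 h 12 of 64 were higher and 2 lower, beside 12.7% and 15.5%, together 28.1%. BAG2, CCT5, DNAJB11, DNAJC3 and DNAJC25 were higher at all 3 times. DNAJB1, DNAJC9 and HSPB8 were higher at 24 and 72 h, DNAJC22 at 24 and 48 h, and HSPB1 at 48 and 72 h. DNAJB5 was lower at 24 and 48 h, and HSPBAP1 at 48 and 72 h. Between 24 and 72 h HSPB1, HSF1, HSPA13, DNAJA4 and DNAJC12 were higher and HSPA1A, DNAJC22 and HSPBAP1 lower, 5 and 3 of 64, beside 8.16% and 8.54%, together 16.7%. DNAJA4 had 4 reads at 24 h, of which an estimated 35.2% may be mouse.

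In mouse transcripts 3 of 63 were higher and 1 lower at 24 h, beside 8.34% and 7.68%, together 16.0%, of all genes eligible, and the same counts held at 48 h, beside 5.39% and 6.74%, together 12.1%. At 72 h 1 of 62 was higher and none lower, beside 3.51% and 4.84%, together 8.35%. Dnajc5 was higher at all 3 times and Hspb11 at 24 and 48 h, and Dnajb12 was lower at these. From 24 to 72 h none was higher and Bag6, Dnajc25, Hspa13 and Hspb2 were lower, 4 of 63, beside 3.41% higher and 6.38% lower of all, together 9.78%.

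Levels of the same gene in the 2 species, set side by side as log2(CPM + 1), lay a median of 1.26 apart between the unfused controls over the 57 genes, with 17 of 57 higher in bovine. In heterokaryons the median distances were 1.01, 1.20 and 1.02 by time. Over all 5635 genes the distances were 1.04 in the controls and 0.83, 0.93 and 0.95 in the heterokaryons. The distance was smaller than between the controls for 37, 33 and 32 of the 57 genes, or 64.9%, 57.9% and 56.1%, beside 60.8%, 55.2% and 54.4% of all genes. The tables were counted on separate annotations and normalised separately, so a distance between the species also holds differences of transcript models.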

How the data were processed

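For each library, cDNA was amplified from the polyadenylated RNA of 200 cells in 14 cycles with SMART-Seq v4, per the labels' protocols. The authors deposited 1 bovine and 1 mouse table of read counts per RefSeq transcript. Each also holds deposited RPM, as its header says, which equalled the counts scaled by column totals. The submitters' processing notes name the builds bosTau8, GRCm38 and mm10. How reads were aligned, counted and assigned to a species was not given in the sources used here. Bovine positions are taken to be bosTau8 as its only named build. The mouse table's row of totals was dropped. Gene names turned into spreadsheet dates were restored by transcript number for 23 of 23 bovine and 57 of 60 mouse rows. Counts were summed by gene name. The value 1 never occurs in either table. Starts are printed counted from 1, as the lowest base listed.

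Each table was tested whole with edgeR 4.0.16 in R 4.3.3 (quasi-likelihood test; TMM scaling over all genes; then a minimum of 10 CPM in any 1 library; calls at a Benjamini-Hochberg adjusted p below 0.05); the interaction of species and fusion used genes with 1 name in both tables. The bovine and mouse columns of a heterokaryon library come from the same cells and so form 3 pairs; their deviations from the mean of the 3 libraries correlated, across 5635 genes, at -5e-05, 0.00748 and 0.09 at 24, 48 and 72 h. A block for each heterokaryon library, with both controls as 1 further level, was an alternative added after seeing the data. DESeq2 1.42.0 was an alternative. The fits were tested on simulated data with 200 genes changed 4-fold. They recovered 65.0% of these in bovine, 70.0% in mouse and 38.5% for the species difference, so many changes of that size can be missed. Unchanged genes called numbered 13 of 6921, 12 of 8447 and 5 of 5290. Values by time use log2(CPM + 1) and a limit of 2-fold. Floors are 3 reads and intervals 95%. Wrong assignment was estimated by scaling what the opposite species' control left in a table to each heterokaryon library. How reads shared by transcripts of a gene were divided is not known, so levels and tests use only sums by gene. Near-identical copies and overlapping genes are uncertain.

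The members and lists were chosen with earlier results of these data known. Named with values were members that passed a test, the 3 largest changes in each family at 10 CPM or more, 15 major genes in both species, genes of the other lists that passed, and RBM3 and CIRBP. By this rule DNAJA2 and DNAJA3 in both species and mouse Bag4, Dnajb14 and Tcp1 also qualified, but their values are not given. Further genes, such as Hspa4l, Hspa1b, SDF2L1, VBP1, the actins, TRAP1, DNAJB6, DNAJC5 and some counterparts in the other species, were named after their values were seen. Python 3.11.15 was used with numpy 2.4.6, scipy 1.17.1, pandas 2.3.3 and, for the plots, matplotlib 3.10.9.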

Additional observations from a re-analysis of the deposited data

Results flagged for a closer look

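Of the chaperone genes and the genes of the other lists, 7 stood out because their change differed between the species by the edgeR interaction test, bovine above mouse in each. Over all 5635 genes tested in both species, 3.02% passed with bovine above mouse and 1.63% the other way, together 4.65%. Of the 57 chaperone genes CCT5 alone passed. How many genes of the other lists were tested in both species was not counted. The difference on the log2 scale was 2.38 for ACTG1, 1.51 for CCT5, 1.24 for MANF, 2.59 for RBM3, 1.93 for TRAP1, 1.87 for TUBA1B and 2.03 for TUBB4B. Of these 7, RBM3 alone passed under all alternatives run; the others did not pass without the 48 h library. The heterokaryon columns of both species come from the same cells, and the bFF and mESC controls differed in temperature, medium and inhibitors, so the difference cannot be told apart from these. No group had the 4 samples needed to look for a library far from the others.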

How the results depend on the processing

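No group had a replicate, so each heterokaryon library left out also removes a time point. For these fits the share of all genes called was not counted beside the members. The shared replicate number 1 pairs nothing within a species, where each group holds 1 library. For the species difference, a block for each heterokaryon library gave 1 chaperone gene higher and 0 lower, as without the block; of the 7 genes of all lists that passed, the difference of MANF no longer did (1.25, adjusted p = 0.0657), and the block changed no other call on the named genes. Bovine genes called higher numbered 4 under the library-total, relative log expression, DESeq2, no-filter, 50 CPM and subtraction settings and 5 with TMM over the tested genes alone, an alternative chosen after seeing the data. Without single heterokaryon libraries the count ranged from 1 to 13, and of genes called lower from 0 to 3; the cause was not tested. Mouse genes called higher numbered 1 in place of 0 under relative log expression, TMM over the tested genes alone, DESeq2 and no filter, and 0 to 2 without single libraries, with 0 to 1 called lower. The species difference gave 3 genes in place of 1 by DESeq2 and with a filter of 50 CPM, which tests fewer genes. Without single libraries it gave 0 to 7 higher and 0 to 1 lower.

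The bovine median of 0.28 was 0.18 with library totals, a setting that moved the median of all bovine genes from -0.03 to -0.14, and 0.14 to 0.34 without single libraries. The mouse median of -0.14 was -0.099 with library totals, -0.088 with relative log expression, -0.047 with TMM over the tested genes alone, -0.043 with no filter, -0.12 after subtracting wrongly assigned reads, and -0.11 to -0.058 without single libraries. By time, a limit of 4-fold left 1, 1 and 2 bovine genes at 24, 48 and 72 h and 1, 0 and 0 mouse genes, and a filter of 50 CPM left 11 bovine genes at 24 h and 2, 0 and 0 mouse genes. A pseudocount of 0.1 gave 2 mouse genes at 72 h. The species distance at 48 h was 1.04 with a pseudocount of 5.

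Some signs of small changes turned. Mouse Hsp90ab1 became 0.035 with library totals, 0.047 with relative log expression, 0.087 with TMM over the tested genes alone, 0.095 by DESeq2, 0.015 after subtraction and -0.040 to 0.091 without single libraries. Mouse Hspb1 became 0.015, 0.026, 0.066 and 0.075 under the first 4 of these and -0.057 to 0.020 without single libraries. Mouse Cirbp became 0.013 with TMM over the tested genes alone, 0.021 by DESeq2 and -0.24 to 0.046 without single libraries. Without single libraries the range was -0.46 to 0.021 for HSF1, -0.22 to 1.06 for HSPA1A, -0.035 to 0.39 for HSPA5, with -0.030 when the 72 h library was left out, -0.010 to 0.43 for Bag6, -0.068 to 0.14 for Hspa5 and -0.36 to 0.056 for Hspa9. Of 108 single-gene results, 61 kept their direction and their side of the threshold under all alternatives run for them. Bovine depth at 24 h, 982769 reads, limits genes of few reads most.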
